A study of Mus musculus with 2 samples.

Results

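The genes described here are 42 genes of DNA replication and S phase, the part of the cell cycle in which the genome is copied, out of 31053 genes measured. They were taken as a fixed list of gene symbols, with no threshold on their levels, and all 42 were found. They were measured by single-cell RNA-seq in 2 libraries of 1 group, labelled CycB1-GFP, from mouse corneal epithelium. CycB1-GFP is a reporter genotype in which green fluorescent protein marks cells with Cyclin B1, a protein of cycling cells. The epithelium was peeled off after an enzyme digest, made into single cells, stained with DAPI and sorted, and GFP-positive live cells alone were collected. All cells therefore carry the reporter and passed the same gate, and no GFP-negative or wild-type group is in the series. The labels give no strain or age, no number of mice and no word on pooling, and do not say what drives the reporter.

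Before each S phase, the MCM helicase is loaded onto replication origins by Cdc6 and Cdt1, and geminin blocks a repeated loading. At the start of S phase Cdc45 and the GINS complex turn the helicase on, polymerases and the sliding clamp PCNA copy the strands, and enzymes of nucleotide synthesis supply the building blocks. Many of these genes are switched on by E2F transcription factors at the passage from G1 to S phase, and their RNA falls as cells reach G2 and mitosis, when cyclin B accumulates. In the corneal epithelium such cycling cells lie in the basal layer and at the limbus, the border zone with the conjunctiva that houses its stem cells.

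E2F binding words were searched because the members are a set that tends to be switched on together. RefSeq promoter sequences of mouse build GRCm38.p6, from 250 bases before to 50 bases after a gene start, were found for 33 of the 42 genes. The words were TTTCCCGC, TTTGGCGC, TTTCGCGC and TTTGCCGC on either strand, and words in opposite orientation may overlap. At least 1 of them was in the promoters of 15 of 33 members, or 45.5%, against 2.6% of the 27025 genes with a promoter. A gene with several RefSeq starts was counted once, for a match in any of its promoters. The windows below were printed to show these words in 5 members whose window lies before the RefSeq start and outside the annotated gene, each 5′ to 3′ on the gene's own strand, with the matches in capitals.
Mcm5 (chr8:75109332-75109391, plus strand): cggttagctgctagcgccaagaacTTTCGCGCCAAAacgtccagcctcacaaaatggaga
Mcm6 (chr1:128359760-128359819, minus strand): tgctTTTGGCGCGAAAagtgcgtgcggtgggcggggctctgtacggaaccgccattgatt
Dtl (chr1:191575545-191575604, minus strand): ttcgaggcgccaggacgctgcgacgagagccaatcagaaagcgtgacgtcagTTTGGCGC
Pola1 (chrX:93632260-93632319, minus strand): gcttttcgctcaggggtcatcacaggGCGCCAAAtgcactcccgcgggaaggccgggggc
Casp8ap2 (chr4:32615268-32615327, plus strand): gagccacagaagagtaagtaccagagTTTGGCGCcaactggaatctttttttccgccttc

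In Mcm5 and in Mcm6 the capitals hold 2 overlapping matches, 1 on each strand. In Dtl the match ends at the last base before the gene start. A list of 60 other replication genes held an E2F word in 20 of 52 promoters (38.5%), and a list of 30 genes of G2 and mitosis in 1 of 26 (3.85%). The CCAAT box, the letters CCAAT on either strand, was in 69.7% of member promoters, 80.8% of G2/M promoters and 41.1% of all promoters. The letters TTTGAA on either strand, which occur in the CHR element of mitotic genes, were in 18.2% of member promoters, 57.7% of G2/M promoters and 20.2% of all promoters. A match is a run of letters and not a measured binding site.

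After filtering, 6188 of 6752 barcodes were kept as cells, 3187 in library 1 and 3001 in library 2, with median depths of 5571 and 5886 UMIs per cell. A UMI, or unique molecular identifier, marks 1 captured RNA molecule. Of the UMIs of kept cells, 62559 in library 1 and 60381 in library 2 came from members, or 0.333% and 0.339%. The sums stood at 3332 CPM (counts per 1000000 UMIs, exact Poisson 95% interval 3306 to 3358) and 3393 CPM (3366 to 3420). The log2 difference was 0.03 in all cells and 0.09 among corneal cells alone. Each library is 1 sample, so this difference has no replicate error, and these intervals cover counting error only. The labels do not say whether the libraries came from separate mice. With library as a term, p-values below rest on how unevenly group differences repeat between these 2 libraries, a spread that may be technical. Only 5 barcode sequences occurred in both libraries.

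Of single members, Nasp, a histone chaperone, stood at 220 and 166 CPM in libraries 1 and 2. E2f8, a repressor of E2F targets, stood at 31.2 and 41.2 CPM. These had the largest log2 differences between the libraries, -0.41 and 0.40, and their counting intervals did not overlap. For Mcm5 the libraries were 99.0 and 98.4 CPM, and for Uhrf1, which brings the maintenance DNA methyltransferase to new DNA, 93.4 and 93.4 CPM.

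Most cells held RNA of several members, and the share with RNA of a given member varied with the gene and the depth. A median cell had 16 member UMIs in each library. After each cell of at least 2000 UMIs (2862 and 2664 cells) was thinned to 2000 UMIs, the median was 6 in both libraries and 26.5% and 29.9% of cells had 10 or more. At that depth an Rrm2 UMI, for the small subunit of ribonucleotide reductase, was found in 28.4% and 31.5% of cells, and without thinning in 53.3% and 54.1%. A Cdc6 UMI was found in 2.76% and 2.03% (6.53% and 5.40% unthinned).

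As a background, 87 and 117 cells had no thinned UMI of Mki67, Top2a or the 30 G2/M genes. Their median depths were 4827 and 4349 UMIs, against 5894 and 6163 in all cells thinned. They held a median of 2 and 1 member UMIs, with 90th percentiles of 11 and 5.4, against 13 and 14 in all cells thinned. An Rrm2 UMI was found in 11.5% (exact 95% interval 5.65 to 20.1%) and 4.27% (1.402 to 9.69%) of them, and a Cdc6 UMI in 1 of 87 and 1 of 117. For Cdc6 the interval in these cells, 0.0291 to 6.24% and 0.0216 to 4.67%, covered the share in all cells.

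The first question was how the members move with the phase of the cell. Cells of at least 2000 UMIs were ranked, within each library, by the share of their UMIs in the 30 G2/M genes, which include no member, and divided into quartiles of 715 or 716 cells in library 1 and 666 in library 2. Over all cells ranked, the member sum was highest in the lowest quartile. The sum stood at 4748, 4244, 2689 and 1714 CPM from the lowest to the highest quartile in library 1, and at 4417, 4291, 3069 and 1781 CPM in library 2. Replication RNA was thus lower in each next quartile in both libraries, and the highest quartiles lay below all others. The lowest quartile also held all of the cells without proliferation RNA, meaning no thinned UMI of Mki67, Top2a or the G2/M genes. Their median of member UMIs was low. In library 1 their 75th percentile, 6.5 thinned member UMIs, still lay above the median of 6 in all cells.

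UMIs were summed per library and quartile, and tested with edgeR's quasi-likelihood test over 11133 genes. Against the lowest quartile, 0 members were higher and 40 lower in the highest quartile at an adjusted p under 0.05. Of all genes tested, 13.9% were higher and 15.7% lower. The median log2 fold change of the members was -1.84, with 0 members higher past an unadjusted p of 0.05, and DESeq2 called 0 higher and 38 lower. In the third quartile 1 member was higher and 34 lower (6.64% and 7.25% of all genes). In the second quartile 2 were higher and 12 lower (2.96% and 1.88% of all genes). These 3 comparisons share the lowest quartile.

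**Figure D1:**
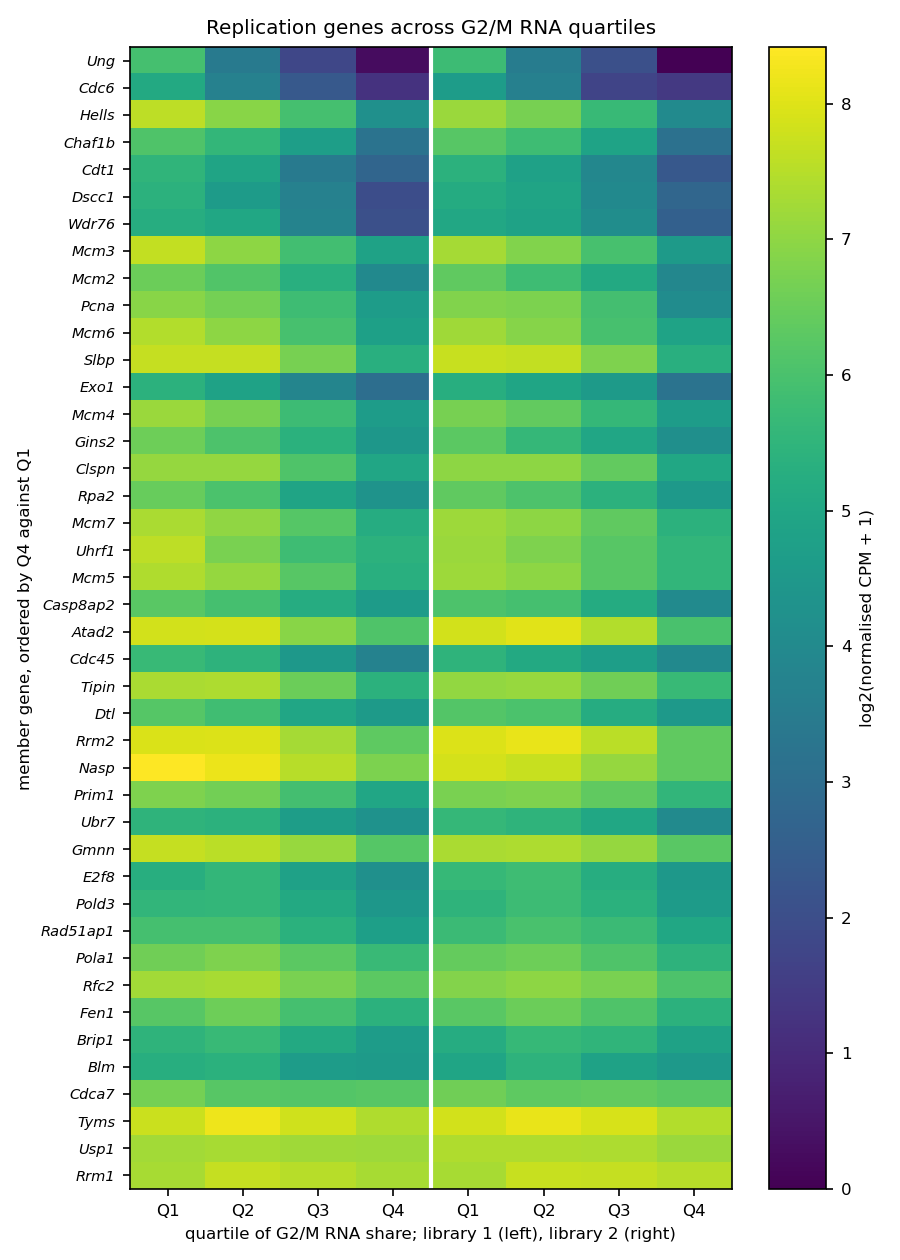
Level of each of the 42 members (rows, ordered by the log2 fold change of the highest against the lowest quartile) in the quartiles of G2/M RNA share (columns Q1 to Q4, library 1 left and library 2 right), as log2(normalised CPM + 1). The genes at the top, led by Ung and Cdc6, fade from Q1 to Q4, and Cdca7, Tyms, Usp1 and Rrm1 at the bottom change least.

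The licensing factors were the role with the largest median change, at -3.14, and all 3 fell. Normalised CPM of Cdc6 from the lowest to the highest quartile was 33.9, 11.9, 4.10 and 1.37 in library 1, and 24.2, 11.8, 2.30 and 1.64 in library 2. The lowest quartiles did not overlap with any other. The log2 fold change of the highest against the lowest quartile was -4.25 (SE 0.29, edgeR adjusted p 1.03e-11). Cdt1 fell by 3.14 (SE 0.21, adjusted p 6.785e-12), from 44.9 and 41.0 to 5.69 and 3.98 normalised CPM. Gmnn, whose product geminin inhibits Cdt1, fell by 1.30 (SE 0.10), from 205 and 163 to 72.6 and 76.4 normalised CPM. The lowest and highest quartiles of Gmnn did not overlap, and its change was smaller than that of Cdc6 and Cdt1.

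All 6 genes of the MCM helicase fell, with log2 fold changes from -2.80 to -1.89. Mcm3 stood at 201, 127, 57.1 and 27.5 normalised CPM over the quartiles of library 1, and at 154, 112, 61.6 and 23.2 in library 2, a log2 fold change of -2.80 (SE 0.12, edgeR adjusted p 8.26e-16). Mcm5 stood at 169, 134, 74.5 and 38.5 in library 1, and at 144, 125, 73.9 and 45.9 in library 2, a log2 fold change of -1.89 (SE 0.11). Both genes went down at each step in both libraries. Mcm2, Mcm6, Mcm4 and Mcm7 lay between them, at -2.57, -2.54, -2.32 and -1.99. The helicase activators also fell, Gins2 of the GINS complex by 2.17 and Cdc45 by 1.78.

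Of the 8 fork and polymerase genes all fell, over a wider range. Dscc1, part of a clamp loader variant, fell by 3.14 (SE 0.23), from 41.8 and 35.6 to 2.96 and 5.86 normalised CPM. Pcna, the sliding clamp, stood at 121, 101, 55.2 and 23.9 normalised CPM in library 1, and at 113, 108, 59.3 and 15.9 in library 2, a log2 fold change of -2.55 (SE 0.14, edgeR adjusted p 2.01e-13). Rpa2, which coats single strands, fell by 2.04, and Prim1, the primase that starts each new stretch, stood at -1.498. Smaller changes were those of the polymerase subunits Pold3 (-0.99) and Pola1 (-0.94), of Rfc2, a clamp loader subunit (-0.89), and of Fen1, which trims lagging-strand flaps (-0.87). These last 4 genes were highest in the second quartile in both libraries.

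Nucleotide supply moved least. Rrm2 stood at 247, 252, 155 and 79.2 normalised CPM in library 1, and at 251, 282, 187 and 81.8 in library 2, a log2 fold change of -1.63 (SE 0.09, edgeR adjusted p 6.4e-14). Rrm1, the large subunit of the same enzyme, stood at 158, 206, 180 and 159 in library 1, and at 158, 206, 205 and 180 in library 2. Its lowest and highest quartiles differed by 0.10 (SE 0.08, adjusted p 0.405) on the log2 scale. In the second quartile Rrm1 rose by 0.38 (SE 0.08, adjusted p 0.00403), as did Tyms, thymidylate synthase, by 0.38 (SE 0.08, adjusted p 0.002). Rrm1 was also the member higher in the third quartile, at 0.28. There 0 members were higher with DESeq2, without the library term, thinned to 2000 UMIs or in corneal cells alone (1 at an unadjusted p in each). In the second quartile DESeq2 called neither Rrm1 nor Tyms higher, with 2 members past an unadjusted p. Without the library term edgeR called 0 members higher in that quartile (3 at an unadjusted p).

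Of the 7 genes of chromatin and histone supply all fell. Hells, a chromatin remodeller that works with DNA methylation, stood at 191, 119, 59.5 and 17.8 normalised CPM in library 1, and at 140, 102, 50.3 and 15.5 in library 2, a log2 fold change of -3.31 (SE 0.12, edgeR adjusted p 3.32e-17). Chaf1b, a subunit of the factor that puts histones onto new DNA, fell by 3.14 (SE 0.15). Slbp, which binds histone mRNA, fell by 2.41, Uhrf1 by 1.92, Atad2 by 1.80 and Nasp by 1.61. Cdca7, which partners Hells, fell by 0.38 (SE 0.10, adjusted p 0.00451). Its lowest quartiles, at 99.2 and 96.1 normalised CPM, lay above the 6 others, which ranged from 70.6 to 82.5.

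Of the 10 repair and checkpoint genes 9 fell. Ung, which removes uracil from DNA, had 251 and 216 UMIs in the lowest quartiles and 1 and 0 in the highest. Per UMI sequenced it was 248-fold lower in library 1 (95% counting interval 44.0 to 9815) and, from the same interval, at least 58.4-fold lower in library 2, where the highest quartile had 0 UMIs. Already in the second quartile Ung fell by 2.45 (SE 0.17, edgeR adjusted p 5.7e-11), from 59.9 and 53.4 to 9.91 and 10.7 normalised CPM. Wdr76 fell by 3.09, the nuclease Exo1 by 2.37, the checkpoint adaptor Clspn by 2.06, and Tipin, of the fork protection complex, by 1.69. Dtl, which targets Cdt1 for destruction in S phase, fell by 1.67. Rad51ap1 (-0.98) and the helicases Brip1 (-0.62) and Blm (-0.60) changed less. Usp1, a deubiquitinase of PCNA, did not pass, at -0.18 (SE 0.08, adjusted p 0.12), and was called in no comparison of this report. The remaining members also fell, Casp8ap2 by 1.87, Ubr7 by 1.42 and E2f8 by 1.14.

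The members thus differed in where they stood highest. In both libraries 25 were highest in the lowest quartile and 14 in the second, and 3 (Prim1, Gmnn and Usp1) differed between libraries. The 14 were Tyms, Fen1, Rrm1, Rrm2, Rfc2, Rad51ap1, Pold3, Atad2, Tipin, Blm, Clspn, Pola1, Brip1 and E2f8. None of the MCM and licensing genes was among them. For most of the 14 the step from the lowest to the second quartile did not pass the test. The share of all genes highest in each quartile was not counted, so this order is a description.

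Of the 60 other replication genes, 2 were higher and 44 lower in the highest quartile, with a median of -1.18. Ccne1, cyclin E1, which drives entry into S phase, fell by 4.42 (SE 0.20), from 60.6 and 63.8 to 2.28 and 3.52 normalised CPM. Atad5, which unloads the clamp from DNA, fell by 1.99 (SE 0.15). Those higher were Dbf4, the activating subunit of the origin-firing kinase Cdc7, at 1.88 (SE 0.11, edgeR adjusted p 3.69e-13), and Rnaseh2c, a subunit of an enzyme that removes ribonucleotides from DNA, at 0.75 (SE 0.10), named after its value was seen. Dbf4 went from 40.6 and 34.8 to 137 and 140 normalised CPM, against the direction of the members.

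The second question was how the members differ between the epithelial states in the sort. Cells with at least 5 UMIs of Krt12, the corneal keratin, and Krt15, a keratin of limbal and conjunctival basal cells, were classed by the share of Krt12 in this sum. A share above 0.8 was called corneal (2304 and 1821 cells in libraries 1 and 2) and 0.4 to 0.8 mixed-keratin (161 and 164 cells). A share under 0.4 was split by Gpha2, a limbal gene, at 2 UMIs, and by the mucosal keratins Krt4, Krt13 and Krt19 at 3 UMIs in all. This gave Gpha2-positive cells (294 and 450), mucosal-keratin cells (120 and 158), cells over both limits (110 and 244) and Krt15-dominant cells with little Gpha2 (139 and 107). No member was used for these classes. They are ranges of keratin counts: 65 cells lay within 0.05 of the lower share limit and 151 of the upper.

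The 6 classes held epithelial RNA with little of other cell types. Across class and library the 6 corneal epithelial markers summed to between 12979 CPM in Gpha2-positive and 40442 CPM in corneal cells. Krt12, which is among them, was used for the classes. The 5 stromal, 2 endothelial and 3 melanocyte markers summed to at most 2.72, 1.20 and 7.53 CPM in any class, and the immune markers to at most 65.4 CPM, in the Krt15-dominant cells of library 2. The goblet cell marker Agr2 was highest in mucosal-keratin cells, at 87.7 and 137 CPM, and Muc5ac, the defining goblet mucin, was at 0 in all 6 classes. The 4 conjunctival markers, of which Krt4, Krt13 and Krt19 were used for the classes, summed to 2760 and 4822 CPM in mucosal-keratin and to 108 and 86.2 CPM in corneal cells.

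Mucosal-keratin cells had less replication RNA than corneal cells. Their member sums were 2353 and 2198 CPM, against 3365 and 3571 in corneal cells, 3479 and 3370 in Gpha2-positive, 3151 and 3048 in cells over both limits, 3640 and 2835 in Krt15-dominant and 3289 and 3234 in mixed-keratin cells. Both values of mucosal-keratin cells lay below all others. Against corneal cells, edgeR called 0 members higher and 29 of 42 lower at an adjusted p under 0.05, with 15.7% of the 9390 genes tested higher and 12.5% lower. The median member stood at -0.67 on the log2 scale (-0.66 in each library alone), and that of all genes at 0.00. No member was higher at an unadjusted p, and DESeq2 called 0 higher and 19 lower.

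Of the 30 G2/M genes 7 were higher in these cells and 0 lower, with a median of 0.18, and 22 of the 30 stood above 0. Of the 59 other replication genes tested, 1 was higher and 19 lower, with a median of -0.51. Dut, which keeps uracil out of the nucleotide pool, went from 276 and 252 normalised CPM in corneal cells to 153 and 103 in mucosal-keratin cells, a log2 fold change of -1.06 (SE 0.13, edgeR adjusted p 9.498e-08). Rpa1, the large subunit of the complex that coats single strands, stood at -1.08, Pole4, a polymerase epsilon subunit, at -1.24 and E2f7, a repressor of E2F targets, at -1.84. The gene higher was Supt16, of a histone chaperone complex, at 0.44, named after its value was seen.

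**Figure D2:**
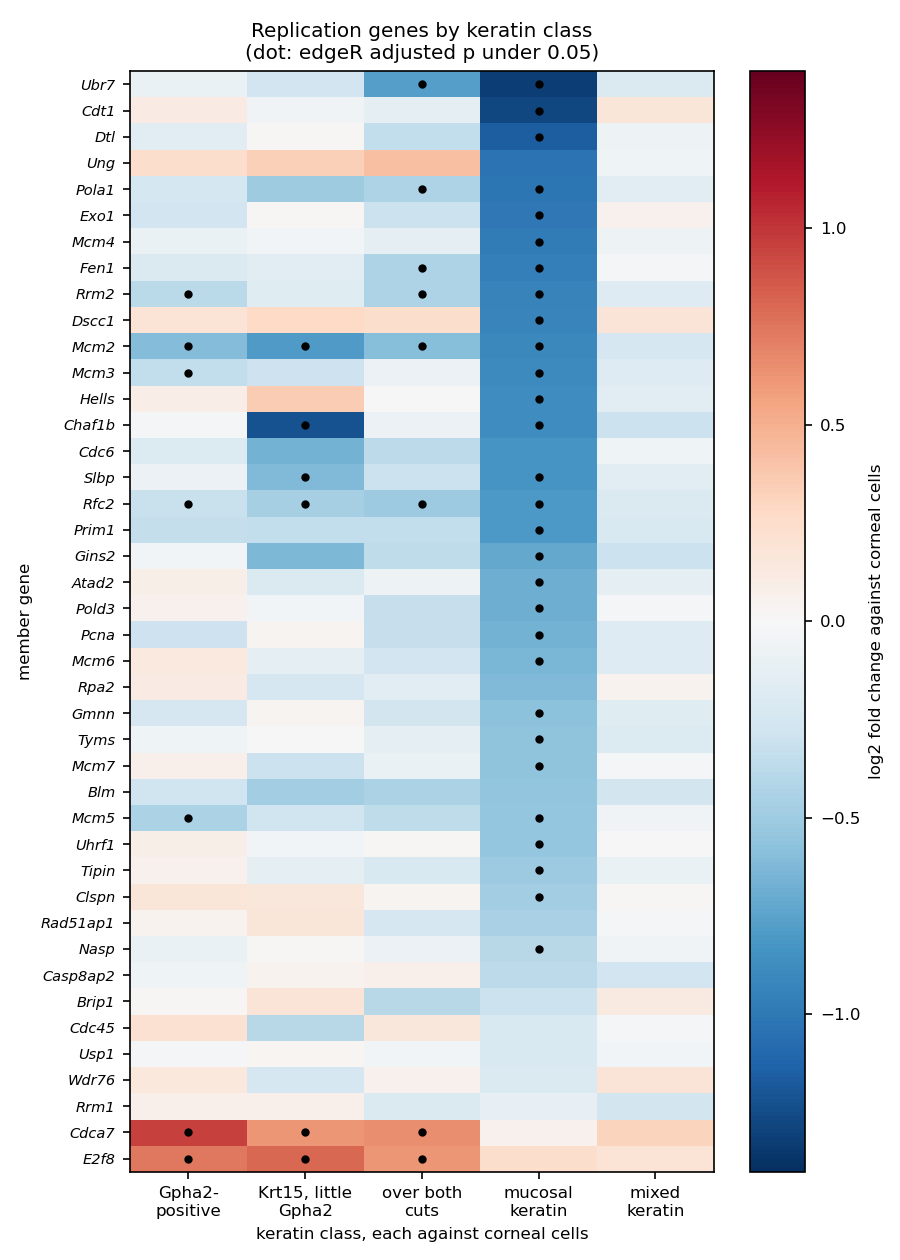
Log2 fold change of each member (rows, ordered by the mucosal-keratin column) in 5 keratin classes against corneal cells, with a dot where the edgeR adjusted p was under 0.05. The mucosal-keratin column is the only one that is blue nearly throughout, with 29 dots, and Cdca7 and E2f8 at the bottom are red and dotted in the Gpha2-positive, Krt15-dominant and over-both columns.

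By role, all 6 MCM genes were lower in mucosal-keratin than in corneal cells. Mcm4 stood at 39.7 and 35.7 normalised CPM in libraries 1 and 2, against 78.7 and 69.5 in corneal cells, a log2 fold change of -0.97 (SE 0.20, edgeR adjusted p 0.000221). Mcm2 was at 24.1 and 33.2 against 57.8 and 51.1 (-0.91, SE 0.22), and Mcm3 at 58.1 and 50.5 against 104 and 96.4 (-0.89, SE 0.18). For each of these genes both mucosal-keratin values lay below both corneal values. Mcm6, Mcm7 and Mcm5 ranged from -0.64 to -0.54.

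Of the licensing genes, Cdt1 (12.8 and 6.16 against 21.7 and 23.0 normalised CPM) stood at -1.27 (SE 0.36, edgeR adjusted p 0.00669) and Gmnn at -0.57. Cdc6 did not pass, at 5.66 and 7.39 against 13.2 and 10.4 normalised CPM. Its log2 fold change was -0.82 (SE 0.46, adjusted p 0.193). Of the 8 fork and polymerase genes 7 were lower. Pola1, the catalytic subunit of polymerase alpha, had 34.0 and 48.0 against 88.4 and 80.2 normalised CPM, a log2 fold change of -1.02 (SE 0.19, adjusted p 9.29e-05), and Fen1 had 36.8 and 38.2 against 70.6 and 74.9 (-0.96, SE 0.20). Dscc1 was at -0.92 (SE 0.33). For Pola1 and Fen1 the classes did not overlap.

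Of the nucleotide genes, Rrm2 had 111 and 107 against 190 and 227 normalised CPM, a log2 fold change of -0.94 (SE 0.13, edgeR adjusted p 3.7e-07). Tyms was at -0.56, while Rrm1 was at -0.12 (adjusted p 0.51). Ubr7, a ubiquitin ligase family member, had the largest change of all members, with 12.8 and 16.0 against 33.2 and 39.1 normalised CPM (-1.32, SE 0.27, adjusted p 0.000304). Dtl followed at -1.15 (19.8 and 24.6 against 46.7 and 53.0) and Exo1 at -1.004. Of the chromatin genes Hells was at -0.87, and the other 12 members called lower ranged from -0.87 to -0.39. Cdca7 (0.06, adjusted p 0.846) and E2f8 (0.25, adjusted p 0.414) were the members above 0.

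The difference was also measured within quartiles of G2/M RNA. With equal numbers of cells drawn from each quartile in every class but Krt15-dominant cells, 20 members were lower, all among the 29. The median member stood at -0.52. In the lowest quartile the member sum was 3205 CPM in mucosal-keratin against 4743 in corneal cells of library 1, and 1998 against 4607 in library 2, with counting intervals that did not overlap. Within this quartile the G2/M genes also differed between the classes, at 1064 CPM in mucosal-keratin against 1287 in corneal cells of library 1 and 662 against 1360 in library 2, and their part in the result was not tested. In the highest quartile the member sum was 1279 against 1727 CPM in library 1. In library 2 it was 1611 against 1755 CPM, with intervals (1462 to 1771 and 1701 to 1811) that did overlap. The second quartile of mucosal-keratin cells stood at 3636 and 3481 CPM, above their lowest, with overlapping intervals in library 1. Among cells of at least 2000 UMIs, those without proliferation RNA numbered 5 of 114 and 27 of 140 mucosal-keratin cells. In corneal cells they numbered 58 of 2039 and 57 of 1622. All were in the lowest quartile, which held 22 and 46 mucosal-keratin and 526 and 418 corneal cells. Their part in the difference within this quartile was not tested. Thinned to equal depth, 13 of 37 members tested were lower, and 10 of 36 when cells without proliferation RNA were also left out, with medians of -0.61 and -0.61. The shares of all genes called with equal quartiles or after thinning were not counted. Fewer cells in S phase and less RNA per such cell cannot be told apart in these sums.

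**Figure D3:**
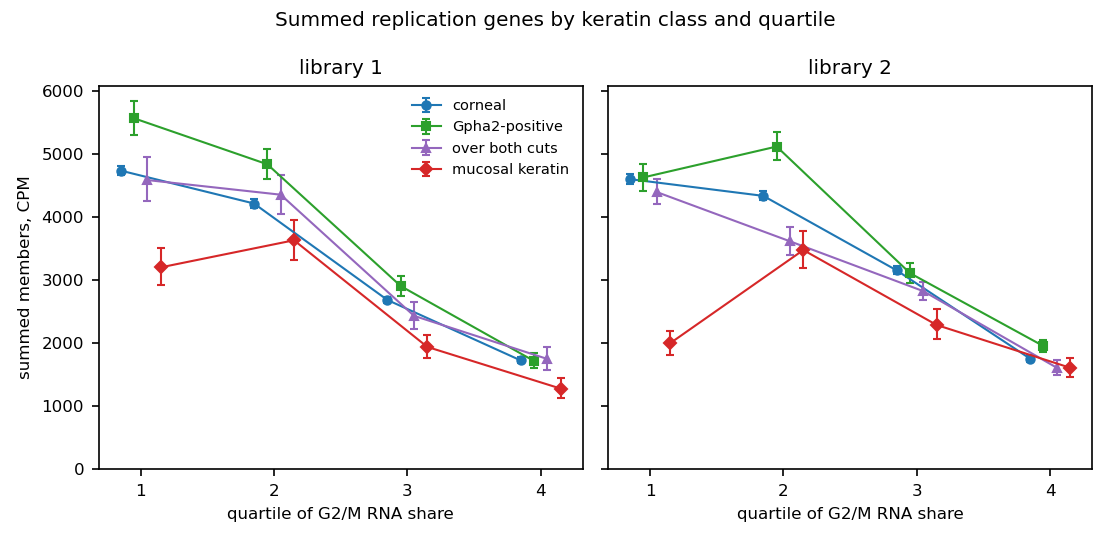
Summed member CPM (y axis) by quartile of G2/M RNA share (x axis) in 4 keratin classes, 1 panel per library, with exact Poisson 95% intervals that cover counting error only. The mucosal-keratin points lie below the corneal points in every quartile, by most in the lowest quartile of library 2 (1998 against 4607 CPM) and by least in the highest quartile of library 2.

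Set directly against Gpha2-positive cells, a comparison chosen after the others were seen, mucosal-keratin cells had 0 members higher and 22 lower, with 9.82% of all genes higher and 8% lower by edgeR. The median was -0.62, and 0 members were higher at an unadjusted p or with DESeq2, which called 10 lower. Cdt1 stood at -1.38 (SE 0.39, edgeR adjusted p 0.0107), Ung at -1.27 (SE 0.43, adjusted p 0.0378) and Hells at -0.96 (SE 0.22, adjusted p 0.00202). Cdca7 was lower too, with 65.1 and 80.0 against 114 and 156 normalised CPM (-0.90, SE 0.17, adjusted p 0.000201). This comparison uses the same mucosal-keratin sums as the one before.

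Gpha2-positive cells had member sums close to those of corneal cells. edgeR called 2 of 42 members higher and 5 lower, smaller shares than the 15.1% and 13.9% of all genes. The median member stood at -0.03. Cdca7 had 114 and 156 normalised CPM against 73.3 and 66.0 in corneal cells, a log2 fold change of 0.96 (SE 0.13, adjusted p 1.79e-07). E2f8 had 50.01 and 57.4 against 28.1 and 36.4 (0.74, SE 0.15, adjusted p 0.000149). For both genes the classes did not overlap. The members lower were Mcm2 (-0.61, SE 0.16), Mcm5 (-0.44), Rrm2 (-0.38), Mcm3 (-0.35) and Rfc2 (-0.32), with edgeR adjusted p from 0.00405 to 0.0449. Mcm2 stood at 43.3 and 29.6 against 57.8 and 51.1 normalised CPM.

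The G2/M list was higher in the same Gpha2-positive cells, with 11 genes higher, 0 lower and a median of 0.23. With equal quartiles 4 members were higher, while edgeR called 0 lower (3 at an unadjusted p). With no such matching, DESeq2 called 0 lower (3 at an unadjusted p), and edgeR without the library term 0 lower (3 at an unadjusted p). Over all cells ranked, Cdca7 and E2f8 stood lower in the highest than in the lowest quartile, and E2f8 was highest in the second. The part of G2/M RNA in the difference of these 2 genes between the classes was not tested. In the lowest quartile of library 1 the member sum of Gpha2-positive cells was 5574 CPM (5307 to 5851) against 4743 (4669 to 4817) in corneal cells. In library 2 it was 4634 (4425 to 4850) against 4607 (4528 to 4687). The second quartile of Gpha2-positive cells stood below their lowest in library 1, at 4843 CPM, and above it in library 2, at 5125 CPM (4908 to 5349).

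Cdca7 and E2f8 were also the members called higher in Krt15-dominant cells and in cells over both limits. In Krt15-dominant cells with little Gpha2, 2 members were higher and 4 lower by edgeR, with 8.3% and 7.25% of all genes. The share of members was below that of all genes for the higher and near it for the lower. Cdca7 had 96.6 and 122 normalised CPM (0.62, SE 0.17) and E2f8 54.4 and 55.7 (0.80, SE 0.21), all above both corneal values. Without the library term edgeR called 0 members higher in these cells (2 at an unadjusted p), and thinned to 2000 UMIs per cell also 0 (2 at an unadjusted p). Chaf1b, at 19.6 and 13.3 against 37.8 and 43.9 normalised CPM, was lower by the largest amount (-1.22, SE 0.30, adjusted p 0.00336). Mcm2, Slbp and Rfc2 stood at -0.79, -0.62 and -0.46. The members' median was 0.06 in library 1 and -0.55 in library 2. In library 2 these cells had a median of 3015 UMIs, 52.2% of those deep enough to be ranked were in the highest G2/M quartile, against 27.1% in library 1, and the part of this in the result was not tested.

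In cells over both limits, 2 members were higher and 6 lower by edgeR, with 14.3% and 11.4% of all genes. Here too the share of members was below that of all genes for the higher and near it for the lower. Cdca7 stood at 0.65 (SE 0.14) and E2f8 at 0.62 (SE 0.17). Thinned to 2000 UMIs per cell, edgeR called 0 members higher there (2 at an unadjusted p). Ubr7 had 24.0 and 20.2 against 33.2 and 39.1 normalised CPM (-0.77, SE 0.21, adjusted p 0.00614), and Mcm2, Rfc2, Fen1, Pola1 and Rrm2 ranged from -0.60 to -0.43. In mixed-keratin cells 0 members were higher and 0 lower by edgeR (1 and 1 at an unadjusted p, and 0 and 0 with DESeq2, also unadjusted), with 4.78% and 2.95% of all genes. Their median was -0.07, with a range from -0.30 to 0.31.

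Over the 5 comparisons with corneal cells, which share the corneal sums, Mcm2 and Rfc2 were lower in all classes but mixed-keratin cells. In Gpha2-positive cells neither was called lower with DESeq2, without the library term or with equal quartiles. The shares of all genes called in these same classes, or in none, were not counted. Another 11 members passed in none: Rrm1, Ung, Rpa2, Rad51ap1, Wdr76, Cdc45, Cdc6, Blm, Casp8ap2, Usp1 and Brip1. Ung and Cdc6, which had the largest changes across the quartiles, are thus among those called in no class against corneal cells. They had few UMIs per class, with 8.50 and 7.39 normalised CPM of Ung in mucosal-keratin cells.

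The third question concerned Sox9, a transcription factor that the series' title ties to limbal stem cells. Cells with a Sox9 UMI (1409 and 1144) were compared with cells without one (538 and 644) drawn to the same distribution of total UMIs in each library. Cells with Sox9 had a lower member sum, at 3111 against 3515 CPM in library 1 and 2977 against 3668 CPM in library 2. edgeR called 0 members higher (0 at an unadjusted p) and 26 lower, with 2.6% of all genes higher and 1.64% lower. The median member was -0.29 (-0.22 in library 1 and -0.37 in library 2).

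The largest change was that of Ung, with 13.4 and 9.21 against 20.3 and 22.0 normalised CPM, a log2 fold change of -0.92 (SE 0.16, edgeR adjusted p 6.82e-05). Cdc6 had 10.5 and 6.91 against 14.8 and 12.2 (-0.65, SE 0.19, adjusted p 0.0341), and Cdt1 19.5 and 14.2 against 27.3 and 24.5 (-0.63, SE 0.14, adjusted p 0.00223). For each of these 3 genes both values with Sox9 lay below both values without it. Wdr76 stood at -0.57, Chaf1b at -0.48 and Gins2 at -0.46. Mcm2 (-0.44), Slbp (-0.42), Uhrf1 (-0.42), Mcm6 (-0.41), Ubr7 (-0.39) and Hells (-0.39) followed, and the other 14 called lower ranged from -0.39 to -0.24. All 6 MCM genes and all 3 licensing genes were lower, against 2 of 8 fork and polymerase genes. Tyms (-0.04), Rrm1 (0.01) and Blm (0.01) were near 0 and did not pass.

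**Figure D4:**
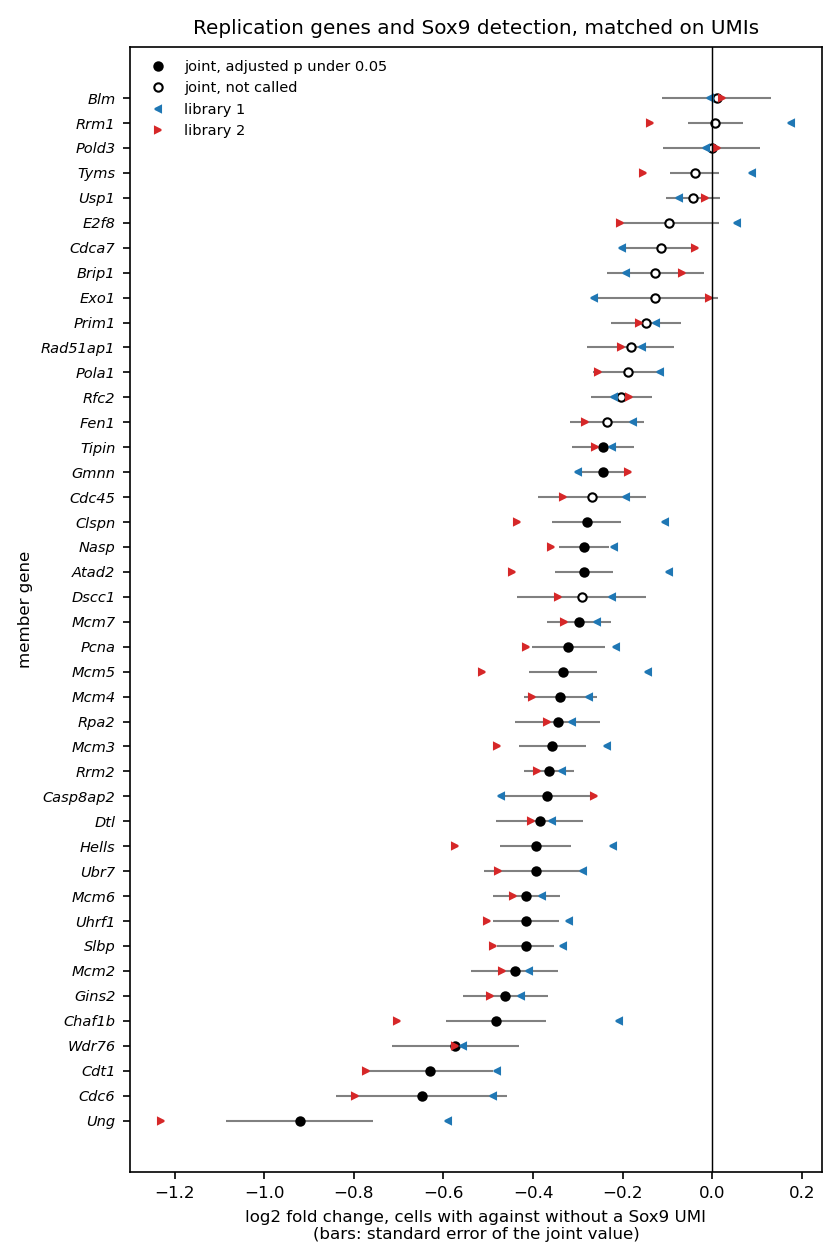
Log2 fold change of each member in cells with against cells without a Sox9 UMI, matched on total UMIs: joint value with its standard error (circles, filled where the edgeR adjusted p was under 0.05) and the value in each library (triangles). Of the 42 joint values 40 lie below 0 and 26 are filled, with Ung, Cdc6 and Cdt1 farthest to the left.

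Cells with Sox9 also had more G2/M RNA, at 6132 against 5274 CPM in library 1 and 6769 against 5196 CPM in library 2, with 24 of 30 G2/M genes higher. In library 1, 18.3% of the cells with Sox9 were in the lowest G2/M quartile against 32.6% of those without, and in library 2, 19.0% against 30.0%. When cells were matched on G2/M quartile as well, which left 253 and 198 cells without Sox9, edgeR called 0 members lower (9 at an unadjusted p) and the median was -0.13. DESeq2 called 0 lower (13 at an unadjusted p), as did edgeR without the library term (14 at an unadjusted p). The groups matched on UMIs also differed in keratin class. Corneal cells made up 62.6% and 52.6% of cells with Sox9 against 78.3% and 71.0% of those without. Gpha2-positive cells made up 13.7% and 19.1% against 5.76% and 9.94%. Matched on keratin class, which left 255 and 202 cells without Sox9, or among corneal cells alone, 1 member was lower. With 4 sums, 1 residual degree of freedom was left for the spread.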

How the data were processed

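The deposited values are UMI counts per gene and cell from 1 pooled matrix of 6752 barcodes, made by the authors with Cell Ranger 3.1.0 per the file headers. The submitters' processing notes also name Seurat 5.0.0 and the mouse build GRCm38 (mm10), while neither source names the gene annotation or the way cells were called. The barcode endings 1 and 2 were taken as the 2 libraries, with no link to the replicate numbers of the labels. Libraries held 19001107 and 18030874 UMIs. Barcodes with under 500 genes (475) or at least 20% mitochondrial UMIs (311) were left out. No doublet caller was run. Leaving out the 5% of cells with most UMIs was tried instead.

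UMIs were summed per library and cell group and tested with edgeR 4.0.16 in R 4.3.3 (TMM scaling, filterByExpr, robust quasi-likelihood test, library as a term, Benjamini-Hochberg adjustment over all genes tested, threshold 0.05). DESeq2 1.42.0 was an alternative, beside other filters, share limits, thinning, equal quartiles and leaving out each library. Cells without Sox9 were drawn to the depth deciles of cells with it. Intervals are exact Poisson or exact binomial at 95% and cover counting error only (scipy 1.17.1). The fit was tested on simulated counts. Levels are normalised CPM per sum, and a level of 1 gene is not set against that of another.

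Members and lists were chosen with earlier results of these data known. The rule named in each comparison up to 12 called members of like sign in both libraries, by size of change, and up to 4 called genes of the other lists with a mean of at least 20 CPM. A gene that this rule names is not reported here. Further members are named by role, chosen after their values were seen. Cells over both limits, the 2 middle quartiles and the comparison of mucosal-keratin with Gpha2-positive cells were added after the data were seen.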

Additional observations from a re-analysis of the deposited data

How the results depend on the processing

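The fall of the members toward high G2/M RNA held in every alternative run, with 36 to 41 members lower and medians from -1.98 to -1.65 (leaving out either library gave these ends). For mucosal-keratin against corneal cells the median ranged from -0.74 to -0.37, and the members lower numbered 19 with DESeq2, 19 without the replicate block (the library term), 13 of 37 tested after thinning to 2000 UMIs and 10 of 36 after thinning with cells without proliferation RNA left out. With cells over both limits counted as mucosal-keratin, which raised the class from 120 and 158 to 230 and 402 cells, 2 members were higher. Against Gpha2-positive cells the members lower numbered 10 with DESeq2, 8 without the block, 6 thinned and 7 thinned with proliferation RNA (medians -0.65 to -0.50). The share of all genes called was counted for the main fits only, here and in the runs below.

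For Gpha2-positive cells the members lower numbered 0 with DESeq2, 0 without the block, 3 thinned, 3 thinned with proliferation RNA and 0 with equal quartiles (3 at an unadjusted p in each case of 0), where 4 were higher. Krt15-dominant cells had 1 higher and 2 lower with DESeq2, 0 and 1 without the block, 0 and 1 thinned, 0 and 2 thinned with proliferation RNA, and 1 higher with share limits of 0.3 and 0.9. Equal quartiles could not be drawn for them. Cells over both limits had 1 lower with DESeq2, 1 without the block, 0 higher and 2 lower thinned, 0 and 3 thinned with proliferation RNA, and 3 lower with equal quartiles. Medians stayed between -0.11 and 0.09, -0.55 and 0.06, and -0.27 and -0.14 in these 3 classes.

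For Sox9 the members lower numbered 0 with DESeq2, 0 without the block, 0 matched on G2/M quartile (13, 14 and 9 at an unadjusted p), 1 matched on class, 1 in corneal cells alone, 3 thinned and 15 without the 5% of cells with most UMIs. All 12 medians were below 0, from -0.37 to -0.13. Ubr7 changed sign when matched on class (0.0416) and Uhrf1 when matched on G2/M quartile (0.00676). The cause of these changes was not tested. Matching on class or on G2/M quartile left fewer cells without Sox9. In the thinned run the groups were set anew by a thinned Sox9 UMI, with no match on depth. This gave 619 and 437 cells with Sox9 and 2243 and 2227 without. Cells whose Sox9 UMI was lost in thinning thus counted as cells without it.

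Shares of cells with a UMI follow depth: averaged over libraries, Mcm5 went to 31.6% at 4000 UMIs and 38.8% unthinned, Rrm2 to 48.0% and 53.7%, and Cdc6 to 4.61% and 5.96%. The log2 difference between libraries was 0.0857 in corneal cells alone. With 2 libraries each group has 1 pair of sums, and the spread is what the library and group terms leave, pooled over a fit. Whether the libraries are separate animals is not known.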

Other observations

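Cells in no keratin class, with under 5 UMIs of Krt12 and Krt15 together, numbered 59 and 57 and were shallow, with median depths of 1573 and 1331 UMIs. Their member sums were 3467 and 2882 CPM. The 5 immune markers summed to 1516 and 4351 CPM in these cells, with all 5 detected in both libraries, and the 6 corneal markers to 14906 and 9112 CPM. They enter none of the class comparisons.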
